A study of Mus musculus with 9 samples.

Results

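The receptor chains for IL-12, IL-23, IL-18, IL-27 and IL-25 were followed across innate lymphocytes of the mouse gut epithelium. The 7 genes, Il18r1, Il18rap, Il23r, Il12rb1, Il12rb2, Il27ra and Il17rb, were taken by symbol from the 19938 genes measured, and each had 1 row (transcript cluster) on the array. From NOD SCID mice aged 8 to 10 weeks, the study sorted intraepithelial lymphocytes of the small intestine to a stated purity above 98%, and hybridised the RNA to Affymetrix Mouse Gene 1.0 ST arrays. The cells lacked surface CD3 and carried CD45, and they were divided by Ly49E, an NK-type receptor encoded by Klra5, and by the CD8 alpha homodimer. The populations were Ly49E+CD8aa+, Ly49E+CD8aa- and Ly49E-CD8aa+, each on 3 arrays. All populations came from the same strain, which carries the scid mutation and lacks mature T and B cells, and cells without both markers were not analysed here. The labels call the arrays biological replicates without the number of mice per array, so the p-values measure the spread between these samples.

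IL-12 and IL-23 are heterodimers that share a subunit, and their receptors share the chain encoded by Il12rb1. It pairs with the product of Il12rb2 to bind IL-12 and with that of Il23r to bind IL-23, and the signal runs through JAK2, TYK2 and STAT proteins. IL-18 belongs to the IL-1 family and is bound by the Il18r1 chain, with the Il18rap chain needed for signalling through MyD88. In the gut, IL-12 and IL-18 are known as inducers of interferon gamma in NK cells and group 1 innate lymphoid cells, and IL-23 as an inducer of IL-22 and IL-17 in group 3 innate lymphoid cells.

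The sort could be followed in the transcripts. Klra5, whose family is open to cross-hybridisation, averaged 11.40 ± 0.103 on the Ly49E+CD8aa+ arrays, 11.43 ± 0.0654 on the Ly49E+CD8aa- arrays and 6.59 ± 0.982 on the Ly49E-CD8aa+ arrays (log2, SD, n = 3 each). Cd8a averaged 12.55 ± 0.0668, 11.42 ± 0.143 and 12.58 ± 0.0669 in the same order, so its transcript was also bright in the population sorted as CD8aa-. Itgb7, the dimmest of 6 intraepithelial lymphocyte markers, averaged 9.38, 9.42 and 9.27. The list was not even across the populations. By limma, Itgae differed by 0.31 for Ly49E+CD8aa+ from Ly49E+CD8aa- (adjusted p = 0.04). For Ly49E+CD8aa- from Ly49E-CD8aa+, Itgae differed by -0.34 (adjusted p = 0.0213) and Cd160 by 0.86 (adjusted p = 0.0102). With only the 6 arrays compared, these adjusted p were 0.0729, 0.0651 and 0.067. Cd3e averaged 11.75, 10.70 and 11.67 in cells sorted as CD3-. Array medians ran from 5.76 to 5.82 and array 25th percentiles from 4.40 to 4.47. The files used here give no detection calls, so a value near or below the 25th percentile is a dim signal and is no proof of a silent gene.

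Il18r1, Il18rap and Il23r were high in Ly49E+CD8aa- cells alone of the 3 populations, and the other 4 receptor genes did not pass the test in any comparison. Against Ly49E+CD8aa-, the Ly49E+CD8aa+ cells had lower Il18r1, Il18rap and Il23r, and 0 of the 7 genes were higher. By limma with Benjamini-Hochberg adjustment, called at an adjusted p under 0.05, 3 of 7 genes were lower in that comparison, where 1.22% of all genes were called lower, 0.476% higher and 1.70% either way. Between Ly49E+CD8aa- and Ly49E-CD8aa+ cells 3 of 7 were higher, against 1.35% of all genes called higher, 0.802% lower and 2.15% either way. Between Ly49E+CD8aa+ and Ly49E-CD8aa+ cells limma called 0 of 7, against 0.130% of all genes (0.0201% higher and 0.110% lower). There 1 of 7 had an unadjusted p under 0.05, as had 834 of all 19938 genes. For Ly49E+CD8aa+ from Ly49E+CD8aa- these counts were 3 of 7 and 1880, and for Ly49E+CD8aa- from Ly49E-CD8aa+ 4 of 7 and 2081. The 7 genes were chosen with earlier results of these data known. Since the arrays hold bulk RNA, fewer cells of a type and less RNA per cell cannot be told apart.

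**Figure D1:**
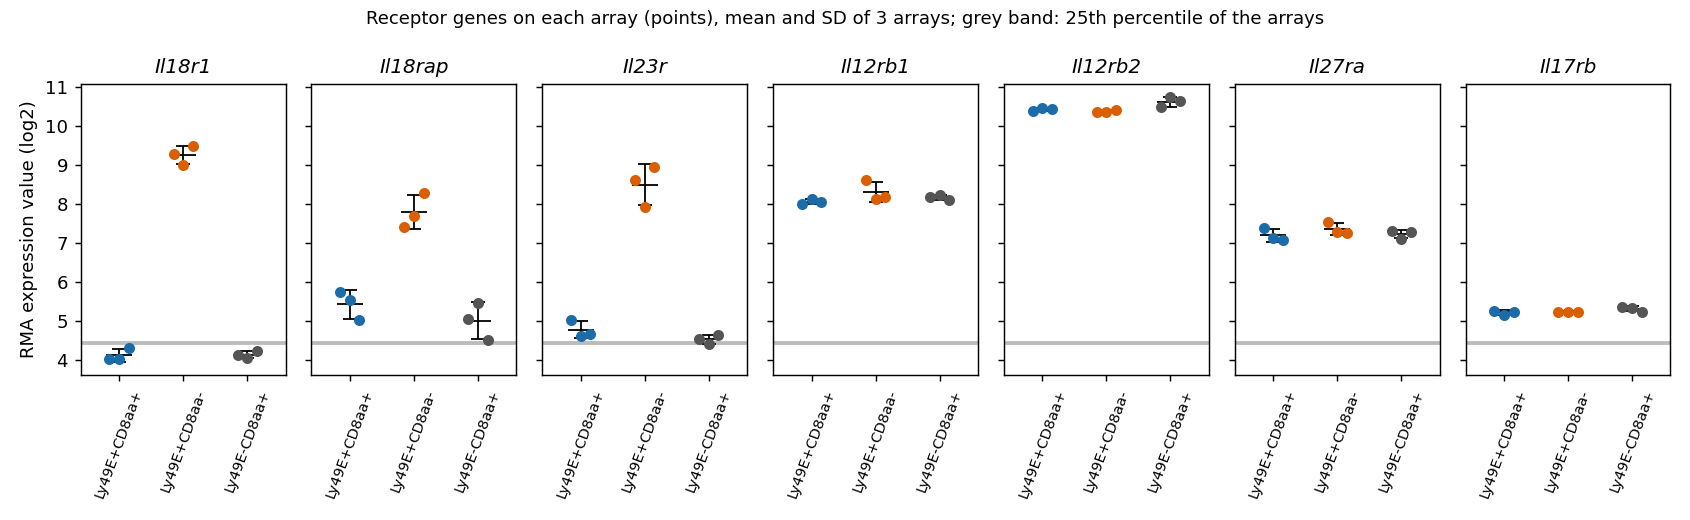
Log2 RMA expression values of the 7 receptor genes (vertical axis) on each of 3 arrays of Ly49E+CD8aa+, Ly49E+CD8aa- and Ly49E-CD8aa+ cells (points), with the mean and SD (bars) and the 25th percentiles of the arrays (grey band, 4.40 to 4.47). The Ly49E+CD8aa- points of Il18r1, Il18rap and Il23r lie above all points of the other populations, and Il18r1 lies below the band in both CD8aa+ populations.

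Il18r1 (transcript cluster 10345807) encodes the ligand-binding chain of the IL-18 receptor. It read 4.03, 4.02 and 4.32 on the Ly49E+CD8aa+ arrays, 9.27, 9.01 and 9.49 on the Ly49E+CD8aa- arrays, and 4.14, 4.05 and 4.22 on the Ly49E-CD8aa+ arrays. All 6 arrays of the CD8aa+ populations lay below the 25th percentile of the arrays and the Ly49E+CD8aa- arrays lay far above it, with no overlap. The log2 difference of Ly49E+CD8aa+ from Ly49E+CD8aa- was -5.13 (SE 0.129, adjusted p = 3.25e-07, n = 3 each). Since the CD8aa+ arrays were this dim and are not shown to be above background, no fold is given. Ly49E+CD8aa- exceeded Ly49E-CD8aa+ by 5.12 (SE 0.129, adjusted p = 2.24e-07). Ly49E+CD8aa+ and Ly49E-CD8aa+ cells differed by -0.01, with an interval of -0.30 to 0.28.

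Il18rap (transcript cluster 10345824), the accessory chain that completes the signalling receptor, followed with a smaller difference and more spread. Its values were 5.74, 5.54 and 5.02 on the Ly49E+CD8aa+ arrays, 7.41, 7.69 and 8.27 on the Ly49E+CD8aa- arrays, and 5.05, 5.47 and 4.51 on the Ly49E-CD8aa+ arrays. The Ly49E+CD8aa- arrays were again separate, while the CD8aa+ populations overlapped. Ly49E+CD8aa+ differed from Ly49E+CD8aa- by -2.35 (SE 0.292, adjusted p = 0.00325), or 5.11-fold with an interval of 3.24 to 8.07, and Ly49E+CD8aa- from Ly49E-CD8aa+ by 2.78 (SE 0.292, adjusted p = 0.000932). The values of both CD8aa+ populations lay below the array medians and are not shown to be above background, so folds of this gene rest on dim signals. The difference of 0.43 between Ly49E+CD8aa+ and Ly49E-CD8aa+ cells did not pass (adjusted p = 1.0), and its interval of -0.23 to 1.08 leaves room for up to a 2.12-fold difference.

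Il18r1 and Il18rap lie side by side on chromosome 1, and the starts of both are shown because the genes differed in the same direction. The sequences are RefSeq promoter windows of build GRCm38.p6, each from 250 bases before to 50 bases after a transcript start, on the plus strand at chr1:40465371-40465670 and chr1:40465756-40466055 for starts 2 and 3 of the 3 listed for Il18r1 and chr1:40515112-40515411 for Il18rap. Capitals mark matches to 6 short motifs searched on both strands: the RUNX motif TGTGGT, the T-box motif TCACACC, the GATA motif AGATAA, the nuclear receptor motif AGGTCA, the AP-1 motif TGANTCA and the STAT motif TTCNNNGAA.
Il18r1, start 2: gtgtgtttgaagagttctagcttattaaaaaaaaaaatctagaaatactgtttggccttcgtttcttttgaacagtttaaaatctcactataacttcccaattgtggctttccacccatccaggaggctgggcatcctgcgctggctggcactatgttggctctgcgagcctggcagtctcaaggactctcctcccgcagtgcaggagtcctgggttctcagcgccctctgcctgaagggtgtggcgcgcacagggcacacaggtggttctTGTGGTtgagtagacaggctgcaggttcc
Il18r1, start 3: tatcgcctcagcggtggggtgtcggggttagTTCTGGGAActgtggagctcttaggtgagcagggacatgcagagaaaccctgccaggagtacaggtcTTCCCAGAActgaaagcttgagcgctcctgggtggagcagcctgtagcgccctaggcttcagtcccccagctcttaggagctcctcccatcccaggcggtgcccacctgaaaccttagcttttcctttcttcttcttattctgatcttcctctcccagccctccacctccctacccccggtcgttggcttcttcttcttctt
Il18rap: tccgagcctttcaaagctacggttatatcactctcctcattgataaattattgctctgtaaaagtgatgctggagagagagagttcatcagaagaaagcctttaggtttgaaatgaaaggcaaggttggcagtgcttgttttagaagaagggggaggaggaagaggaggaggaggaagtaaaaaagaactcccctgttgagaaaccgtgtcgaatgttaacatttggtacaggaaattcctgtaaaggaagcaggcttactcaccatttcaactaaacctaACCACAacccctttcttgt
The window of Il18r1 start 2 held 1 RUNX match, whose first base is at position 22 counted from the start, and the Il18rap window 1 on the opposite strand at position 32. A RUNX match was present in 16.8% of all 32851 promoter windows of this length. The window of Il18r1 start 3 held 2 STAT matches, at positions -219 and -152, and 8.3% of all windows held at least 1. The window of start 1 held none of the 6 motifs. These are matches of letters and not measured binding.

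Il23r (transcript cluster 10545154) encodes the chain that gives the IL-23 receptor its specificity. It read 5.03, 4.62 and 4.68 on the Ly49E+CD8aa+ arrays, 8.61, 7.92 and 8.95 on the Ly49E+CD8aa- arrays, and 4.54, 4.42 and 4.65 on the Ly49E-CD8aa+ arrays. The CD8aa+ populations ran from 4.42, within the range of the array 25th percentiles (4.40 to 4.47), up to 5.03, below the array medians. They overlapped, and the Ly49E+CD8aa- arrays lay apart from both. The difference of Ly49E+CD8aa+ from Ly49E+CD8aa- was -3.72 (SE 0.229, adjusted p = 2.88e-05). No fold is given, since the CD8aa+ arrays were dim and are not shown to be above background. The difference of Ly49E+CD8aa- from Ly49E-CD8aa+ was 3.96 (SE 0.229, adjusted p = 2.2e-05). Ly49E+CD8aa+ and Ly49E-CD8aa+ differed by 0.24, with an interval of -0.28 to 0.76. On the Ly49E+CD8aa- arrays, replicate 3 was the highest for Il18r1, Il18rap and Il23r, and without it the differences from Ly49E+CD8aa+ stayed past the threshold.

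Il12rb1 (transcript cluster 10572497), the chain that IL-12 and IL-23 receptors share, did not pass in any comparison. It read 8.00, 8.13 and 8.04 on the Ly49E+CD8aa+ arrays, 8.61, 8.14 and 8.19 on the Ly49E+CD8aa- arrays, and 8.18, 8.22 and 8.11 on the Ly49E-CD8aa+ arrays. The Ly49E+CD8aa- arrays lay above those of Ly49E+CD8aa+ but by little apart from replicate 1, and they overlapped with Ly49E-CD8aa+. The difference of Ly49E+CD8aa+ from Ly49E+CD8aa- was -0.26 (SE 0.116, adjusted p = 0.542), with an interval from -0.52 to 0.00, so a difference over 1.43-fold lies outside it. The other differences were -0.12 for Ly49E+CD8aa+ from Ly49E-CD8aa+ and 0.14 for Ly49E+CD8aa- from Ly49E-CD8aa+, with adjusted p of 1.0 and 0.752. Without Ly49E+CD8aa- replicate 1 the difference of Ly49E+CD8aa+ from Ly49E+CD8aa- was -0.11.

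Il12rb2 (transcript cluster 10545135), the chain particular to the IL-12 receptor, was bright in all 3 populations. It read 10.39, 10.47 and 10.43 on the Ly49E+CD8aa+ arrays, 10.36, 10.36 and 10.40 on the Ly49E+CD8aa- arrays, and 10.49, 10.74 and 10.63 on the Ly49E-CD8aa+ arrays. The 3 Ly49E-CD8aa+ arrays were above the other 6, by a small amount. Ly49E+CD8aa- differed from Ly49E-CD8aa+ by -0.24 (SE 0.0737, unadjusted p = 0.0094 by limma, adjusted p = 0.216) and Ly49E+CD8aa+ from Ly49E-CD8aa+ by -0.19 (unadjusted p = 0.0304 by limma, adjusted p = 1.0), so neither passed. The interval of the first, -0.41 to -0.08, reaches no further than 1.33-fold. Ly49E+CD8aa+ and Ly49E+CD8aa- differed by 0.05, with an interval of -0.11 to 0.22.

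Il12rb2 and Il23r are also neighbours, as consecutive protein-coding genes on chromosome 6, and of these Il23r was called and Il12rb2 was not. Their promoter windows (RefSeq, GRCm38.p6, minus strand, at chr6:67376139-67376438 for Il12rb2 and chr6:67491806-67492105 for Il23r) are shown for that reason, with the same motifs in capitals and the letters read along the gene's own strand.
Il23r: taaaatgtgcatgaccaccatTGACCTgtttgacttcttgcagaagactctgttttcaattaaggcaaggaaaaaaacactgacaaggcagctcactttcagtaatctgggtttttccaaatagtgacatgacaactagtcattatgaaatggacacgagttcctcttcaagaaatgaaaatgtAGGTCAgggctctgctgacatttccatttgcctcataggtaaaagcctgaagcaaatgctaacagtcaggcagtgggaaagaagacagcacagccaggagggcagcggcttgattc
Il12rb2: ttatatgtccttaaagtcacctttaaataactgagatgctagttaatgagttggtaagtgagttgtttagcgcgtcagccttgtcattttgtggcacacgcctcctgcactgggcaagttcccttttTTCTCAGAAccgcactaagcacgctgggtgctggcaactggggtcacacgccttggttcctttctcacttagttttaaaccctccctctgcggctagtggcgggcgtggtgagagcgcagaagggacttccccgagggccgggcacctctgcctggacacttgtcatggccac
The Il23r window held 2 nuclear receptor motifs, at positions -229 and -66 and 1 on each strand, and 16.3% of all windows held at least 1. The Il12rb2 window held 1 STAT match at position -123. CpG dinucleotides numbered 2 in the Il23r window and 12 in the Il12rb2 window, with a median of 7 over all windows. The Il18rap window held 4 and the Il18r1 windows 5, 7 and 8.

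Genes around these pairs gave a further comparison of neighbours, chosen after their values were seen. In the IL-1 receptor gene cluster on chromosome 1, Il1r2, a decoy receptor for IL-1, had differences of 0.53 for Ly49E+CD8aa+ from Ly49E+CD8aa- and -0.66 for Ly49E+CD8aa- from Ly49E-CD8aa+ (adjusted p = 0.384 and 0.198). Il1rl2, a receptor chain for IL-36, had differences of 0.03 and 0.03. Beyond Il18rap, the sodium-proton exchanger gene Slc9a4 had 0.03 and -0.02 and Slc9a2 had -0.41 and 0.53 (adjusted p = 0.414 and 0.199 for Slc9a2). Serbp1, beside Il12rb2, had -0.08 and 0.06. None of these 5 neighbours passed in any comparison by limma, where 0.130% to 2.15% of all genes were called. Il1r1 and Il1rl1 of the same cluster were not analysed here.

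**Figure D2:**
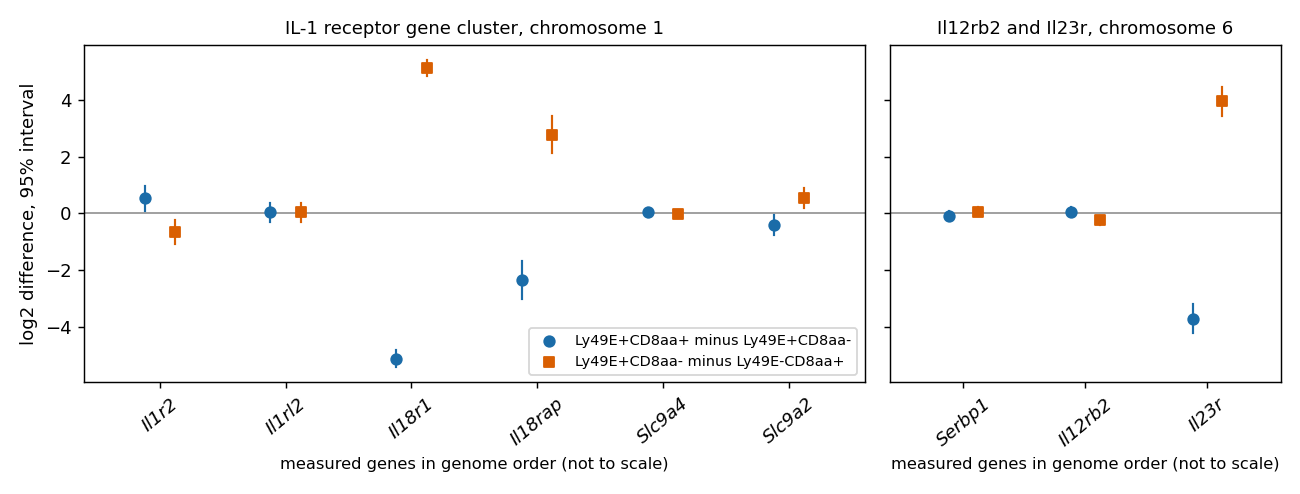
Log2 differences with 95% intervals (vertical axis) of measured genes in genome order, not to scale, around Il18r1 and Il18rap on chromosome 1 and around Il12rb2 and Il23r on chromosome 6. Circles show Ly49E+CD8aa+ minus Ly49E+CD8aa- and squares Ly49E+CD8aa- minus Ly49E-CD8aa+, which share the Ly49E+CD8aa- arrays. Il18r1, Il18rap and Il23r stand away from 0, and Il12rb2 lies near 0 at 0.05 and -0.24.

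Il27ra (transcript cluster 10580061) encodes the IL-27 receptor chain that pairs with gp130, the product of Il6st. It read 7.39, 7.13 and 7.08 on the Ly49E+CD8aa+ arrays, 7.54, 7.29 and 7.26 on the Ly49E+CD8aa- arrays, and 7.31, 7.11 and 7.28 on the Ly49E-CD8aa+ arrays. The 3 populations overlapped, and the 3 differences, from -0.17 to 0.13, had adjusted p of 0.727 or above and intervals that reached no further than 1.33-fold. Il6st, the partner, averaged 7.85 ± 0.446 on the Ly49E+CD8aa+ arrays, 7.79 ± 0.288 on the Ly49E+CD8aa- arrays and 8.30 ± 0.0939 on the Ly49E-CD8aa+ arrays. Its difference of -0.51 for Ly49E+CD8aa- from Ly49E-CD8aa+ did not pass (adjusted p = 0.447).

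Il17rb (transcript cluster 10418341) encodes the IL-25 receptor chain known from type 2 innate lymphoid cells, which pairs with the product of Il17ra. Its values were 5.27, 5.15 and 5.24 on the Ly49E+CD8aa+ arrays, 5.24, 5.24 and 5.22 on the Ly49E+CD8aa- arrays, and 5.37, 5.34 and 5.24 on the Ly49E-CD8aa+ arrays. All lay below the array medians and the populations overlapped. Its differences ran from -0.10 to -0.02, with adjusted p of 0.737 or above and intervals within 1.18-fold. Il17ra averaged 7.39 ± 0.157, 7.79 ± 0.31 and 7.33 ± 0.0401 on the arrays of Ly49E+CD8aa+, Ly49E+CD8aa- and Ly49E-CD8aa+. The difference of 0.46 for Ly49E+CD8aa- from Ly49E-CD8aa+ did not pass (adjusted p = 0.232).

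Over the 3 populations together, the F test called 3 of 7 receptor genes (adjusted p = 3.17e-07 for Il18r1, 2.76e-05 for Il23r and 0.00172 for Il18rap), against 2.03% of all genes. The arrays of Ly49E+CD8aa+ and Ly49E+CD8aa- did not overlap in 4 of 7, against 12.9% of all genes, those of Ly49E+CD8aa- and Ly49E-CD8aa+ in 4 of 7, against 12.7%, and those of Ly49E+CD8aa+ and Ly49E-CD8aa+ in 1 of 7, against 6.25%. The median difference of the 7 genes was -0.26 for Ly49E+CD8aa+ from Ly49E+CD8aa-, beside 0.03 over all genes, and 0.14 for Ly49E+CD8aa- from Ly49E-CD8aa+, beside -0.02. It was -0.04 for Ly49E+CD8aa+ from Ly49E-CD8aa+, and ran from -0.11 to 0.00 without single arrays. The first 2 medians are the differences of Il12rb1, and without Ly49E+CD8aa- replicate 1 they were -0.11 and 0.04.

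**Figure D3:**
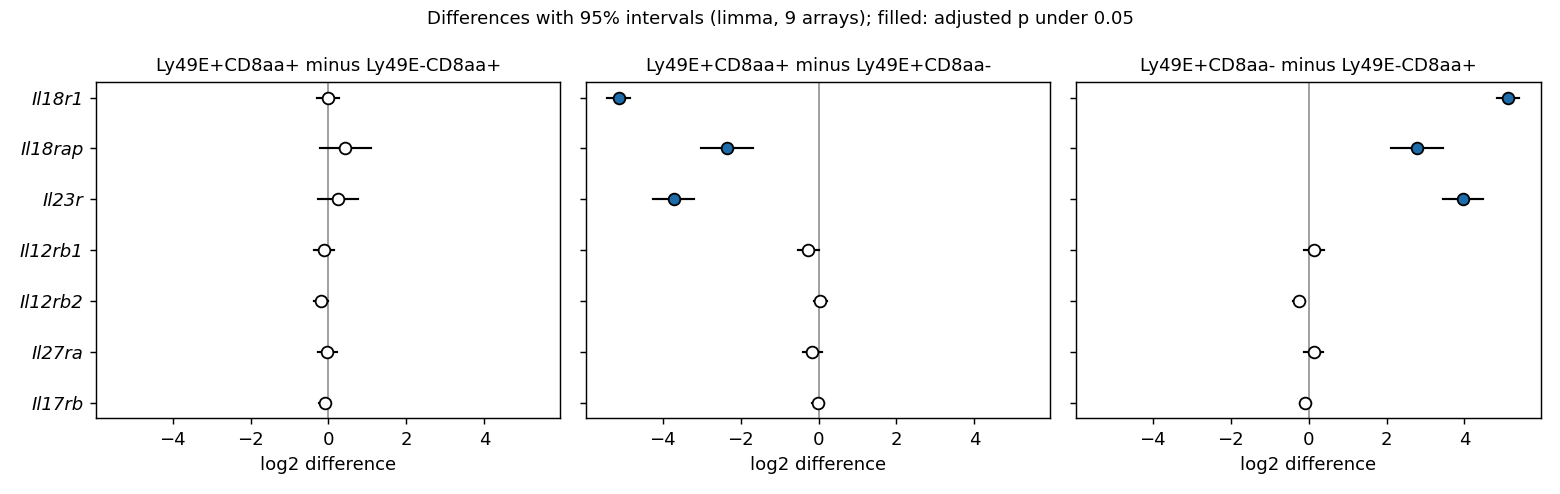
Log2 differences of the 7 receptor genes with 95% intervals (horizontal axis) for Ly49E+CD8aa+ minus Ly49E-CD8aa+, Ly49E+CD8aa+ minus Ly49E+CD8aa- and Ly49E+CD8aa- minus Ly49E-CD8aa+, with filled points past the threshold. Il18r1, Il18rap and Il23r are filled in both comparisons with Ly49E+CD8aa-, from -5.13 to -2.35 and from 2.78 to 5.12, and Ly49E+CD8aa+ minus Ly49E-CD8aa+ has no filled point.

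The genes nearest to each called receptor gene were found by the root mean square (RMS) difference over the 9 arrays after centring each gene on its own mean. For Il18r1 they were the NK receptor genes Klrk1 (RMS 0.289), Klrc1 (0.291) and Ncr1 (0.297). Klrk1, which encodes NKG2D, averaged 4.38, 9.85 and 4.65 on the arrays of Ly49E+CD8aa+, Ly49E+CD8aa- and Ly49E-CD8aa+. For Il23r they were Icos (0.246), a costimulatory receptor, Nr1d1 (0.255), a nuclear receptor of the circadian clock, and Upp1 (0.261), a uridine phosphorylase. Icos averaged 5.22, 9.08 and 5.22 in the same order. For Il18rap they were Satb1 (0.294), a chromatin organiser of lymphocytes, Pxdc1 (0.341) and Klrc3 (0.349), with Satb1 at 5.85, 8.62 and 5.72. Among the receptor genes themselves, Il18r1 and Il23r were 0.65 apart, Il18rap and Il23r 0.718, and Il18r1 and Il18rap 1.28. Values were not scaled, so the RMS also reflects the size of a difference. Ly49E+CD8aa+ minus Ly49E+CD8aa- was -5.13 for Il18r1, -3.72 for Il23r and -2.35 for Il18rap, and all of them were highest on the Ly49E+CD8aa- arrays.

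No ligand gene passed the test. Only 0.130% to 2.15% of all genes were called in a comparison, so 0 calls in a short list says little. Of 5 IL-12 family subunit genes (Il12a, Il12b, Il23a, Il27 and Ebi3) and 4 genes of the IL-18 and IL-25 group (Il18, its soluble inhibitor Il18bp, Il25 and Il17b), 0 passed in any comparison, with differences from -0.22 to 0.19. Il18 averaged 3.49 ± 0.17, 3.31 ± 0.164 and 3.53 ± 0.276 on the arrays of Ly49E+CD8aa+, Ly49E+CD8aa- and Ly49E-CD8aa+, below the 25th percentiles of the arrays. Il23a averaged 4.45 ± 0.181, 4.32 ± 0.0699 and 4.38 ± 0.134, and Il12b 5.21 ± 0.0232, 5.16 ± 0.0859 and 5.19 ± 0.0128. Il18bp was brighter, at 7.51 ± 0.205, 7.67 ± 0.0428 and 7.55 ± 0.0685.

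Related receptor chains mostly stayed under the threshold. Of 6 measured IL-1 receptor family chains and 7 gp130-type chains, 0 passed in any comparison, against 0.130% to 2.15% of all genes. Of the 4 other IL-17 receptor chains, 1 was higher on the Ly49E+CD8aa- arrays than on those of Ly49E-CD8aa+, Il17re, the IL-17C receptor chain, at 6.69, 6.22 and 6.49 on the Ly49E+CD8aa- arrays and 5.83, 5.98 and 5.77 on the Ly49E-CD8aa+ arrays (difference 0.61, SE 0.118, adjusted p = 0.0323). This call was lost without each array in turn other than Ly49E+CD8aa- replicate 2 (adjusted p = 0.0575 to 0.12). In the same comparison 1.35% of all genes were called higher.

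Of 9 measured JAK and STAT genes, 0 passed in any comparison, against 0.130% to 2.15% of all genes. Stat4, the main STAT of the IL-12 receptor, averaged 10.29 ± 0.0622 on the Ly49E+CD8aa+ arrays, 10.25 ± 0.024 on the Ly49E+CD8aa- arrays and 10.18 ± 0.185 on the Ly49E-CD8aa+ arrays. In the MyD88 and Act1 group, 2 of 13 were lower on the Ly49E+CD8aa+ arrays than on those of Ly49E+CD8aa-, and the same 2 were higher on the Ly49E+CD8aa- arrays than on those of Ly49E-CD8aa+, a comparison that shares the Ly49E+CD8aa- arrays. They were Irak3, an inhibitory member of the IRAK family (-0.51, adjusted p = 0.0263, and 0.67, adjusted p = 0.0055), and Tab2, an adaptor of the kinase TAK1 (-0.41, adjusted p = 0.01, and 0.36, adjusted p = 0.0174). Of all genes, 1.22% were called lower in the first comparison and 1.35% higher in the second. The first Irak3 call was lost without any 1 of the Ly49E+CD8aa+ arrays, of Ly49E+CD8aa- replicates 1 and 2 and of Ly49E-CD8aa+ replicate 2 (adjusted p = 0.0532 to 0.112). The second Tab2 call was lost without Ly49E+CD8aa- replicate 2 or 3 or Ly49E-CD8aa+ replicate 1 or 2 (adjusted p = 0.0559 to 0.0729). Myd88 itself averaged 8.09 ± 0.137 on the Ly49E+CD8aa+ arrays, 8.62 ± 0.35 on the Ly49E+CD8aa- arrays and 8.17 ± 0.103 on the Ly49E-CD8aa+ arrays, and its difference of -0.52 for the first pair did not pass (adjusted p = 0.234).

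Among 9 feedback inhibitors, Nfkbia, which encodes the NF-kB inhibitor I kappa B alpha, was lower on the Ly49E+CD8aa+ arrays than on those of Ly49E+CD8aa- (-1.24, SE 0.179, adjusted p = 0.00742), with 8.83, 8.12 and 8.39 against 9.88, 9.68 and 9.51. It was higher on the Ly49E+CD8aa- arrays than on those of Ly49E-CD8aa+ by 1.12 (adjusted p = 0.012), a call lost without Ly49E+CD8aa- replicate 1 or Ly49E-CD8aa+ replicate 2 or 3 (adjusted p = 0.0555 to 0.0587). In this last comparison Cish, a SOCS family inhibitor of STAT5 signalling, was higher by 0.46 (adjusted p = 0.0226), and Ptpn6, which encodes the phosphatase SHP-1, had a difference of -0.55 (adjusted p = 0.0453). Ptpn6 averaged 10.25, 10.26 and 10.81 on the arrays of Ly49E+CD8aa+, Ly49E+CD8aa- and Ly49E-CD8aa+. Its difference of -0.56 for Ly49E+CD8aa+ from Ly49E-CD8aa+ did not pass (adjusted p = 0.306). The Cish call was lost without Ly49E+CD8aa- replicate 1 or 2 or Ly49E-CD8aa+ replicate 2 or 3 (adjusted p = 0.0789 to 0.0943), and the Ptpn6 call without any 1 of 7 arrays, all but Ly49E+CD8aa+ replicate 1 and Ly49E-CD8aa+ replicate 2 (adjusted p = 0.0515 to 0.168).

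Genes known to respond to IL-12 and IL-18 split. Of 16, 4 were lower and 1 higher on the Ly49E+CD8aa+ arrays than on those of Ly49E+CD8aa-, against 1.22% and 0.476% of all genes. The median difference was -0.24, beside 0.03 over all genes. This list and those below were chosen with earlier results of these data known, so their counts are a description. The lower ones were Csf2, which encodes GM-CSF (-3.75), Il2ra, the IL-2 receptor alpha chain (-3.41), Tnf (-3.25) and Gadd45b, a stress-response gene induced by both cytokines in T cells (-1.59), with adjusted p from 4.64e-06 to 0.00476. Csf2 read 5.54, 5.03 and 5.19 on the Ly49E+CD8aa+ arrays, 9.18, 8.78 and 9.06 on the Ly49E+CD8aa- arrays, and 5.73, 5.73 and 5.23 on the Ly49E-CD8aa+ arrays. The perforin gene Prf1 was higher (0.58, adjusted p = 0.0197), a call lost without Ly49E+CD8aa+ replicate 1 or 3 or Ly49E+CD8aa- replicate 1 or 3 (adjusted p = 0.0703 to 0.0896).

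Against Ly49E-CD8aa+, Ly49E+CD8aa- cells had 5 of the 16 higher and 1 lower, against 1.35% and 0.802% of all genes. The median difference of the 16 was 0.22, beside -0.02 over all genes. Il2ra (3.50), Csf2 (3.44), Tnf (3.12) and Gadd45b (1.88) were higher, as was Xcl1, which encodes the chemokine lymphotactin (0.50, adjusted p = 0.0166), and Prf1 had a difference of -0.76 (adjusted p = 0.00393). The Xcl1 call was lost without any 1 of the Ly49E+CD8aa- arrays or Ly49E-CD8aa+ replicate 3 (adjusted p = 0.0598 to 0.0673). Ifng, the main product of IL-12 and IL-18 stimulation, did not pass in any comparison. It read 6.28, 6.10 and 6.36 on the Ly49E+CD8aa+ arrays, 7.40, 7.08 and 6.58 on the Ly49E+CD8aa- arrays, and 5.49, 6.14 and 6.69 on the Ly49E-CD8aa+ arrays, so Ly49E+CD8aa- overlapped with Ly49E-CD8aa+ (difference 0.92, interval 0.26 to 1.57, adjusted p = 0.238). Tbx21, which encodes T-bet, averaged 8.64 ± 0.0549, 8.96 ± 0.113 and 8.76 ± 0.066, with a difference of -0.32 for Ly49E+CD8aa+ from Ly49E+CD8aa- (adjusted p = 0.0871).

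Of 6 measured IL-23 response and ILC3 genes, 2 were lower on the Ly49E+CD8aa+ arrays than on those of Ly49E+CD8aa- and 2 higher on the Ly49E+CD8aa- arrays than on those of Ly49E-CD8aa+, with medians of -0.40 and 0.32. Both were Rora, a nuclear receptor of innate lymphoid cells (-2.11 and 2.13), and Ltb, which encodes lymphotoxin beta (-1.87 and 2.08). Over all genes, 1.22% were called lower in the first comparison and 1.35% higher in the second, with medians of 0.03 and -0.02. Il17a and Il17f, the IL-17 genes that IL-23 induces, averaged 5.39 ± 0.0954 and 5.46 ± 0.175 on the Ly49E+CD8aa- arrays and 5.54 ± 0.0838 and 5.46 ± 0.0188 on the Ly49E-CD8aa+ arrays, and did not pass. Of 5 measured IL-25 response and ILC2 genes, Il13 was higher on the Ly49E+CD8aa+ arrays than on those of Ly49E+CD8aa- (0.58, adjusted p = 0.00865) and had a difference of -0.56 for Ly49E+CD8aa- from Ly49E-CD8aa+ (adjusted p = 0.00943), a call lost with only the 6 arrays compared (adjusted p = 0.0523). Gata3 ran the other way (-0.51, adjusted p = 0.0366, and 0.47, adjusted p = 0.0456). The first Gata3 call was lost without any array other than Ly49E-CD8aa+ replicates 1 and 3 (adjusted p = 0.062 to 0.14), and the second without any single array (adjusted p = 0.0612 to 0.17). Both were lost with arrays centred on their medians (adjusted p = 0.102 and 0.113). Between Ly49E+CD8aa+ and Ly49E-CD8aa+, 0 of the 84 measured genes of these ligand, receptor, signalling and response lists were called, as against 0.130% of all genes.

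**Figure D4:**
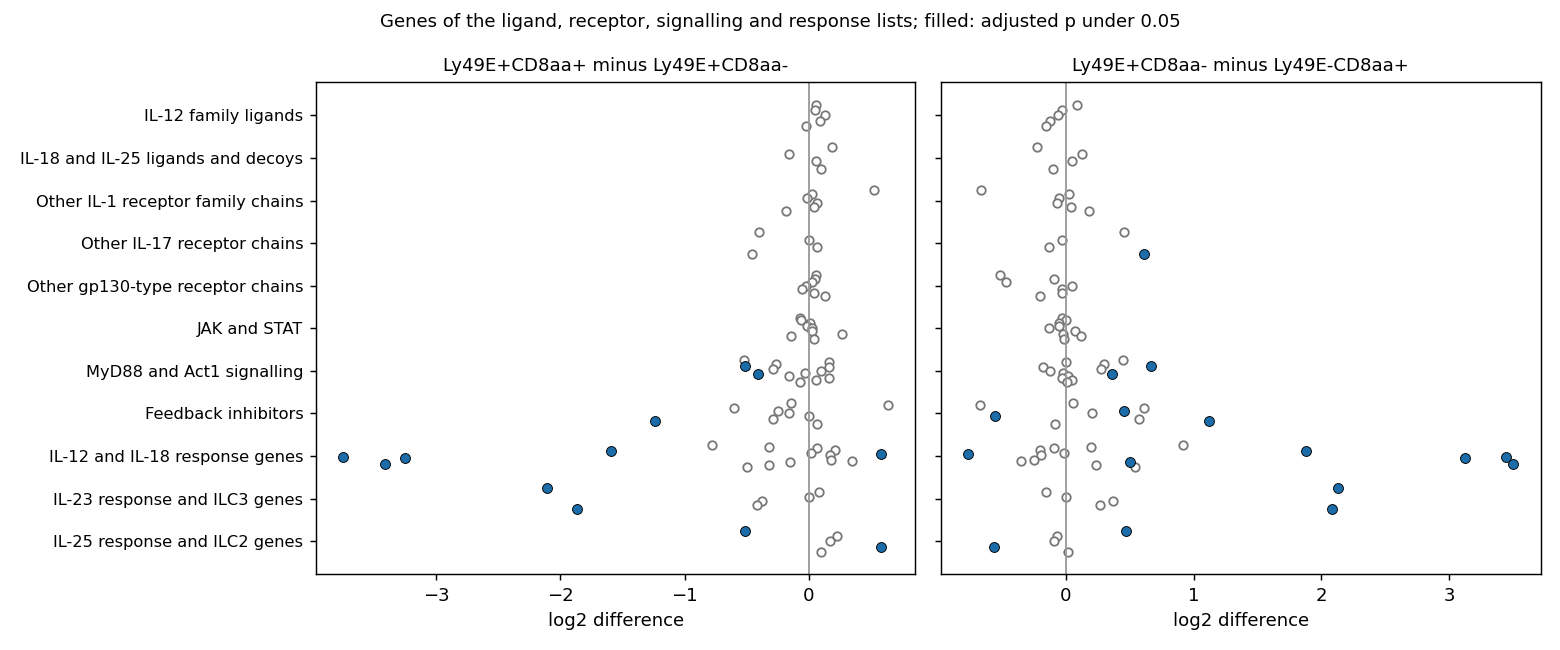
Log2 differences (horizontal axis) of the genes in the lists of ligands, other receptor chains, signalling components, inhibitors and response genes, for Ly49E+CD8aa+ minus Ly49E+CD8aa- and for Ly49E+CD8aa- minus Ly49E-CD8aa+, with filled points past the threshold. Csf2, Il2ra and Tnf lie farthest from 0, at -3.75, -3.41 and -3.25 and at 3.44, 3.50 and 3.12, while the ligand, IL-1 receptor family and JAK and STAT rows have no filled point.

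Some markers of other lymphoid types differed in the same comparisons as Il18r1, Il18rap and Il23r, where 1.22% of all genes were called lower on the Ly49E+CD8aa+ arrays than on those of Ly49E+CD8aa-, and 1.35% higher on the Ly49E+CD8aa- arrays than on those of Ly49E-CD8aa+. Of 9 NK and ILC1 markers, 6 were lower on the Ly49E+CD8aa+ arrays than on those of Ly49E+CD8aa- (median -2.83) and 7 were higher on the Ly49E+CD8aa- arrays than on those of Ly49E-CD8aa+ (median 2.57). Of 6 measured ILC3 markers, 4 were lower and 4 higher in the same comparisons (medians -1.52 and 1.68). The summed level of the NK and ILC1 markers (log2 of the sum of linear values) ran from 12.50 to 12.55 on the Ly49E+CD8aa+ arrays, 13.28 to 13.33 on the Ly49E+CD8aa- arrays and 12.02 to 12.32 on the Ly49E-CD8aa+ arrays. Xcl1, one of the 9, averaged 12.15, 12.30 and 11.80 on these arrays. Without it the sum of the other 8 ran from 10.37 to 10.41, 12.27 to 12.38 and 9.94 to 10.13 in the same order. That of the ILC3 markers ran from 9.53 to 9.66, 11.17 to 11.28 and 9.42 to 9.54. The 9 T cell markers split, with 2 lower, 2 higher and 5 not called on the Ly49E+CD8aa+ arrays against those of Ly49E+CD8aa-. Of all genes, 0.476% were called higher there. Cd8b1, the CD8 beta chain gene, and Cd28 had differences of -3.06 and -2.54, and Cd3e and Themis had 1.05 (adjusted p = 0.0263) and 1.28 (adjusted p = 0.0373). The calls of Cd3e and Themis were lost without any array other than Ly49E+CD8aa- replicate 1 (adjusted p = 0.051 to 0.11 for Cd3e and 0.0604 to 0.153 for Themis), and with only the 6 arrays compared (adjusted p = 0.136 and 0.154). Of 5 measured ILC2 markers, 3 were lower and 1, Il13 (0.58), was higher. The call of Klrg1 among them (-1.09, adjusted p = 0.0163) was lost without Ly49E+CD8aa+ replicate 2 or 3 or Ly49E+CD8aa- replicate 3 (adjusted p = 0.0572 to 0.0757). Some genes stand in more than one list, such as Xcl1, Gata3, Rora and Ltb. The marker lists were chosen with earlier results of these data known, so their counts are no independent check. The part of cell composition in the receptor differences was not tested.

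Markers of non-lymphoid cells gave a different set of calls. Of 10 dendritic cell markers, 3 were lower on the Ly49E+CD8aa+ arrays than on those of Ly49E-CD8aa+ and 4 were lower on the Ly49E+CD8aa- arrays than on those of Ly49E-CD8aa+, while 0 differed between Ly49E+CD8aa+ and Ly49E+CD8aa-. Of all genes, 0.110% were called lower in the first of these comparisons and 0.802% in the second, and 1.70% were called either way in the last. This list was chosen with earlier results of these data known, so its counts are a description and no independent check of cell type. Siglech, a marker of plasmacytoid dendritic cells, had differences of -1.98 and -1.87 from Ly49E-CD8aa+, Ly6d had -1.28 and -1.45, and Cd209d had -1.87 and -1.97. The 3 calls between Ly49E+CD8aa+ and Ly49E-CD8aa+ were lost with only the 6 arrays compared (adjusted p = 0.064 for Siglech, 0.101 for Ly6d and 0.204 for Cd209d). That of Cd209d was also lost without any 1 of the Ly49E+CD8aa+ arrays or Ly49E+CD8aa- replicate 1 or 2 (adjusted p = 0.0509 to 0.101). Clec9a was called between Ly49E+CD8aa- and Ly49E-CD8aa+ (-0.73, adjusted p = 0.0138), lost without Ly49E+CD8aa- replicate 1 or 3 (adjusted p = 0.0625 and 0.0627) and with the 6 arrays alone (adjusted p = 0.0623). The summed level of this list ran from 10.60 to 10.71, 10.79 to 10.93 and 10.96 to 11.43 on the arrays of Ly49E+CD8aa+, Ly49E+CD8aa- and Ly49E-CD8aa+. Itgax, the brightest marker of the list, averaged 9.48, 9.86 and 9.52 on these arrays and weighs most in the sum. Of 8 enterocyte markers, 9 macrophage and monocyte markers and 5 measured B and plasma cell markers, 0 passed in any comparison by limma. The share of all genes called was 0.130% to 2.15%. The enterocyte genes ranged from bright to dim on the arrays of Ly49E+CD8aa+, Ly49E+CD8aa- and Ly49E-CD8aa+. Apoa1, the brightest, averaged 11.20, 11.20 and 11.13, and Sis, the dimmest, 5.23, 5.32 and 5.23.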

How the data were processed

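Total RNA of 9 sorted samples was amplified (NuGEN Ovation Pico WTA V2) and measured on single-channel arrays, per the labels' protocols. The authors deposited log2 expression values made with RMA, per the submitters' processing notes. The scale was taken from the range of values, which run from 1.84 to 13.8. The RMA version, genome build, annotation and any later centring are not stated.

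Of 35556 rows, 21789 had 1 gene symbol in the platform annotation, and 21698 of these were matched to a RefSeq gene record. The row with the highest mean stood for each of 999 genes with several rows, which left 19938 genes. The files name no build, so positions and gene order are those of RefSeq (GRCm38.p6), as are the promoter windows. They were listed for 5 of the 7 receptor genes, and Il12rb1 and Il27ra were not used.

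Differences between populations were tested in limma 3.58.1 (R 4.3.3), with a mean per population over all 9 arrays, no block and no filter on dim rows (prior degrees of freedom 3.08, residual 6). Tests were 2-sided, with Benjamini-Hochberg adjustment over the 19938 genes. Differences are log2 values of the first population minus the second, and intervals are 95% intervals of the model. The number of arrays limits the precision. The code was tested on simulated data. A planned comparison of the receptor proteins was not run, since no protein sequences were used here.

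The receptor genes, gene lists and marker lists were chosen with earlier results of these data known. Named genes were the receptor genes, sort checks, partner chains and ligands, up to 6 called genes of each list with the largest difference, and the 3 nearest genes by RMS difference, with predicted genes, Rik clones and antigen receptor segments left out. Other genes named, such as neighbours, markers and members under the threshold, were chosen after their values were seen.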

Additional observations from a re-analysis of the deposited data

How the results depend on the processing

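The calls of Il18r1, Il18rap and Il23r kept their direction and passed under each alternative in which they were tested, in both comparisons with Ly49E+CD8aa-. Tried were a fit on only the 6 arrays compared, filters on dim rows, quantile normalization, median centring, an intensity trend with robust fit, array weights, the replicate block, the mean of a gene's rows and leaving out each array. Ly49E+CD8aa+ minus Ly49E+CD8aa- ran from -5.26 to -5.02 for Il18r1, -4.01 to -3.49 for Il23r and -2.54 to -2.11 for Il18rap, with adjusted p of at most 0.0181. Il12rb1, Il12rb2, Il27ra and Il17rb passed in none. With the filter at the median of row means, 1 receptor gene was called in place of 3 in both comparisons and in the F test, because Il18r1, Il23r and Il17rb were left out by it.

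Over all genes, the 26 calls between Ly49E+CD8aa+ and Ly49E-CD8aa+ became 0 with the 6 arrays alone, 15 with the median filter, 17 with the replicate block and 5 to 32 without single arrays. The calls included 0 of the 7 receptor genes, which says little about them where so few genes were called. With the 6 arrays alone, Klra5 also lost its call (difference 4.8, adjusted p = 0.101). The 429 calls between Ly49E+CD8aa- and Ly49E-CD8aa+ became 263 with the 6 arrays alone. The 405 of the F test became 248 to 332 without single arrays, the fewest without Ly49E+CD8aa- replicate 3. The causes were not tested. Deviations of same-numbered arrays from their population means correlated at -0.063 to 0.222 and those of other arrays at -0.169 to 0.103, and the own number correlated best in 10 of 18 cases. The 3 pairs of replicate 1 arrays correlated at 0.127 to 0.222, and 9 of 13 epithelial markers were highest on replicate 1 in all 3 populations. The pairs of replicate 2 arrays correlated at 0.024 to 0.078 and those of replicate 3 at -0.063 to 0.123. The labels do not say whether the numbers pair the samples, and the main fit used no block. The replicate block changed no call of a receptor gene (3 of 7 called in both comparisons with Ly49E+CD8aa-). Of 28 calls of genes in the pathway lists, 10 were lost without at least 1 array and 8 with the 6 arrays alone (adjusted p = 0.0523 to 0.134), which were those of Irak3 for Ly49E+CD8aa+ minus Ly49E+CD8aa- and of Cish, Gata3, Il13, Il17re, Ptpn6, Tab2 and Xcl1 for Ly49E+CD8aa- minus Ly49E-CD8aa+. The replicate block lost Gata3 (adjusted p = 0.0575) and Il17re (adjusted p = 0.0515) there, the intensity trend Gata3 (adjusted p = 0.0511) and array weights Ptpn6 (adjusted p = 0.0556).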
